A study of Mus musculus with 6 samples.

Results

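Hepatocyte identity transcription factors are the DNA-binding proteins that switch on, and keep on, the genes by which a liver cell is recognised. The 8 genes described here were Hnf4a, Foxa1, Foxa2, Foxa3, Cebpa, Cebpb, Onecut1 and Prox1, and they were chosen by name as 8 of the 34741 gene names carried by the array. A probe was taken as a member when the gene name of the array design, or the current symbol of its accession, was one of these 8. This gave 10 probes, 1 for each of 6 genes and 2 each for Foxa2 and Onecut1, and all 10 were well above background on all 6 arrays.

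The study compared liver tumors with normal livers in C3H mice, a strain prone to liver tumors in old males. Normal liver 1 to 3 and liver tumor 1 to 3 came from male C3H/HeN mice aged 74 to 75 weeks, and both groups belonged to the untreated control arm, with a standard diet and tap water. By the study's methods the tumors were macroscopic and carried a Ha-ras mutation. RNA of each tissue piece was hybridised to 1 single-colour Agilent mouse array. The labels do not tell which samples, if any, came from the same animal, so p-values measure the spread between these samples. In whole tissue, fewer cells of a type and less RNA per cell cannot be told apart.

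These factors work as a network in which most members bind the promoters of the others. Hnf4a is a nuclear receptor that drives genes of lipid transport, bile acid synthesis and clotting. The Foxa proteins are forkhead pioneer factors that open chromatin, Cebpa and Cebpb are leucine zipper factors of metabolism and of the acute phase, Onecut1 (also known as hepatocyte nuclear factor 6) is a cut-homeodomain factor of liver and bile duct development, and Prox1 is a homeobox factor of the hepatoblast that also marks lymphatic endothelium.

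The genes were spread over several chromosomes. On GRCm38.p6 they lay at chr2:163506811-163572907 (Hnf4a), chr12:57540628-57548029 (Foxa1), chr2:148042877-148046969 (Foxa2), chr7:19013283-19023539 (Foxa3), chr7:35119293-35121928 (Cebpa), chr2:167688915-167690432 (Cebpb), chr9:74861921-74889648 (Onecut1) and chr1:190118035-190170827 (Prox1). The array measured each gene through probes of 60 bases. The first 30 bases are shown for the members whose values differ most between groups or that have 2 probes, with the position of the whole probe on mm9 as the array design gives it.
Foxa3, probe A_52_P64707, chr7:19599053-19599112, minus strand: tgaccttttgagtatgtgacagaacacatc
Cebpb, probe A_55_P2165869, chr2:167515828-167515887, plus strand: agaggcgtatgtatattttgagaacctttt
Foxa2, probe A_55_P2134236, chr2:147868669-147868728, minus strand: cgggtctgatttaatttatggtttctgcgt
Foxa2, probe A_55_P2067533, chr2:147868614-147868673, minus strand: tgttctggctagaatggccagaattccaca
Onecut1, probe A_66_P130647, chr9:74737402-74737461, plus strand: atgagggaggaagaaccacggactagtacc
Onecut1, probe A_55_P1965456, chr9:74710921-74710980, plus strand: cttcggtgaccggcgcgcaggtcagcaatg
Prox1, probe A_55_P2048751, chr1:191945785-191945844, minus strand: acgtttgttttcttagctggatttttgtgt
The 2 Foxa2 probes share 5 bases and so read neighbouring stretches of the same transcript. The 2 Onecut1 probes are 26421 bases apart, near opposite ends of the gene.

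Expression values are the processed signal of a probe divided by the 75th percentile of its array, on a linear scale. Differences between groups are on the log2 scale, tumor minus normal, from limma with Benjamini-Hochberg adjustment over all probes tested, and a gene was called at an adjusted p under 0.05. Where a gene had several probes, the one with the highest mean signal stands for it. All normal livers shared slide 1 and scan 1, and all tumors slide 2 and scan 2. An effect of the slide or scan therefore cannot be told apart from one of the tissue. The median local background was 42 to 45 intensity units on the arrays of normal liver and 22 to 23 on those of the tumors. The 75th percentile was 124 to 177 intensity units on the arrays of normal liver and 171 to 183 on those of the tumors, and 42.7% to 46.7% of spots were well above background.

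Of the 8 factors, Foxa3 was higher and Cebpb lower in the tumors, and the other 6 were not called. The calls therefore covered 2 of 8 members, or 25% of them, beside 34.2% of all 18566 genes tested. In single directions, 1 member was called higher against 13.1% of all genes, and 1 was called lower against 21% of all genes. The median log2 difference of the members was -0.49, with 6 members below 0 and 2 above it, and that of all genes was -0.13. The 3 tumors lay wholly above or below the 3 normal livers for 4 of the 8 members, namely Foxa1, Foxa3, Cebpb and Prox1, beside 51.8% of all genes tested. In an exact two-sided permutation test, 3 arrays against 3 cannot give a p below 0.1, which is the value of those 4 members.

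**Figure D1:**
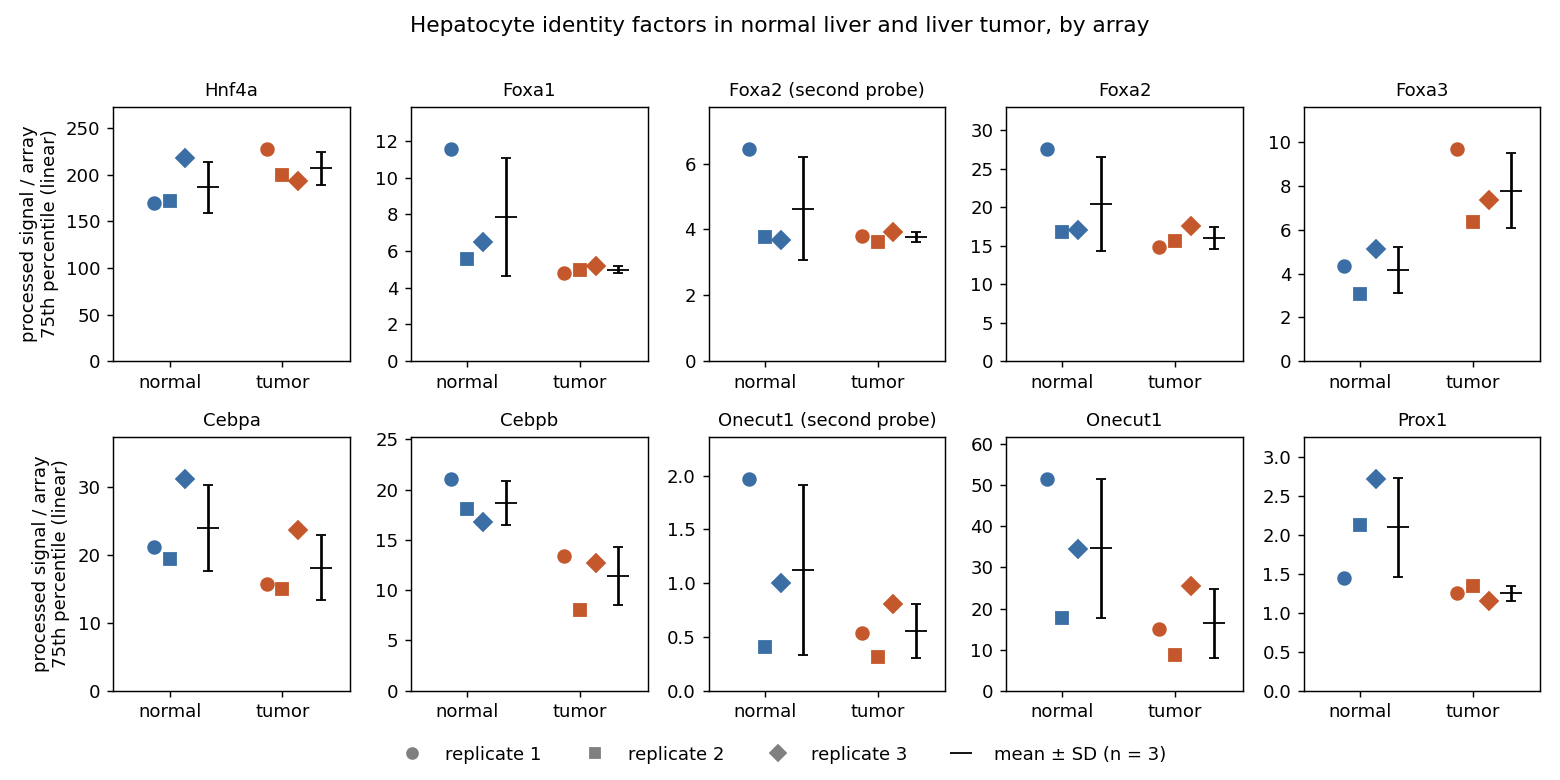
Expression values of the 10 member probes on the 6 arrays, as processed signal over the array's 75th percentile on linear axes that start at 0, with the mean ± SD of each group (n = 3). Foxa3 sits higher in all 3 tumors, Cebpb and Prox1 sit lower in all 3, and normal liver 1 stands above the other normal livers for Foxa1, Foxa2 and Onecut1.

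Hnf4a, the nuclear receptor at the centre of the network, was 170, 171 and 218 in normal livers 1, 2 and 3 and 227, 200 and 194 in tumors 1, 2 and 3. The groups overlapped, with tumor 1 the highest array and normal liver 1 the lowest. The difference was 0.16 ± 0.14 (SE, n = 3 per group) on the log2 scale, with a 95% interval from -0.19 to 0.50 and a limma adjusted p of 0.436. The low end of that interval stands for 0.879 of the normal level. With 1 array left out the difference was 0.09 to 0.27, and it was 0.37 with quantile normalization. The annotation gives this gene 2 start sites, of which the upstream one is known from embryonic liver and pancreas and the downstream one, P1, from adult hepatocytes, and the single probe does not tell the 2 apart.

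Foxa1, a pioneer factor of early liver development, was 11.5, 5.55 and 6.50 in normal livers 1, 2 and 3 and 4.82, 4.98 and 5.17 in the tumors. All 3 tumors were below all 3 normal livers, yet the gap between normal liver 2 and tumor 3 was small and normal liver 1 stood far above the rest. The log2 difference was -0.58 ± 0.27 (SE, n = 3 per group; limma adjusted p = 0.142), and it was -0.27 without normal liver 1.

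Foxa2 acts with Foxa1 in hepatic specification and has a part in adult bile acid and glucose metabolism. Its brighter probe gave 27.5, 16.8 and 17.0 in normal livers 1, 2 and 3 and 14.8, 15.6 and 17.5 in the tumors. The groups overlapped, and only normal liver 1 was clearly apart. The log2 difference of this probe was -0.32 ± 0.21 (SE, n = 3 per group; limma adjusted p = 0.290). The second Foxa2 probe gave 6.43, 3.76 and 3.68 in normal livers and 3.80, 3.62 and 3.92 in the tumors, and it placed normal liver 1 at the top as well. Its log2 difference was -0.24 ± 0.23 (SE, n = 3 per group; limma adjusted p = 0.454), and 0.02 without normal liver 1. The brighter probe gave -0.09 without that array.

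Foxa3, the Foxa protein best known from the adult liver, was 4.33, 3.05 and 5.14 in normal livers 1, 2 and 3 and 9.67, 6.34 and 7.36 in tumors 1, 2 and 3. Every tumor was above every normal liver, the opposite order to that of Foxa1. The group means were 4.17 ± 1.05 and 7.79 ± 1.71 (SD, n = 3 each), a ratio of 1.87. On the log2 scale Foxa3 rose by 0.91 ± 0.24 (SE, n = 3 per group), which is 1.88-fold, with a limma adjusted p of 0.0303. Leaving out 1 array at a time gave log2 differences from 0.70 to 1.08, and the call was lost without normal liver 1 (adjusted p = 0.0683), normal liver 2 (0.0760), tumor 1 (0.0719) or tumor 3 (0.0636). Scaling the arrays by their spike-in controls gave a limma adjusted p of 0.00632, and testing all probes without a filter on dim ones gave 0.0906.

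Cebpa, which keeps hepatocytes quiescent and drives genes of energy metabolism, was 21.2, 19.4 and 31.2 in normal livers 1, 2 and 3 and 15.7, 15.0 and 23.7 in the tumors. Tumor 3 lay within the range of the normal livers and the other 2 tumors lay below it. The log2 difference was -0.40 ± 0.25 (SE, n = 3 per group; limma adjusted p = 0.262). It ranged from -0.19 without normal liver 3 to -0.61 without tumor 3.

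Cebpb, which responds to inflammation and to liver regeneration, was 21.1, 18.1 and 16.8 in normal livers 1, 2 and 3 and 13.4, 8.07 and 12.7 in tumors 1, 2 and 3. Every tumor was below every normal liver, and tumor 2 was the lowest array. The group means were 18.7 ± 2.19 and 11.4 ± 2.90 (SD, n = 3 each), a ratio of 0.611. On the log2 scale Cebpb fell by 0.74 ± 0.22 (SE, n = 3 per group), which is 1.67-fold, with a limma adjusted p of 0.0422. The call was kept only without tumor 1 (adjusted p = 0.0403) and was lost without any other single array: normal liver 1 (0.116), normal liver 2 (0.0997), normal liver 3 (0.0730), tumor 2 (0.0629) or tumor 3 (0.0557). It was also lost with quantile normalization (0.0830) and spike-in scaling (0.102), with log2 differences of -0.61 and -0.57.

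Cebpb is also expressed by macrophages, and macrophage markers moved in both directions on the same arrays. Of 6 markers tested, 3 were called lower (Clec4f by 1.84, Csf1r by 0.81 and Cd68 by 0.64 on the log2 scale) and Cd14 was called higher by 3.54. The called share was 66.7%, beside 34.2% of all genes. The summed expression value of the 6 markers was 56.7 to 94.7 in the normal livers and 38.4 to 61.4 in the tumors. None of the 6 was at background. Their part in the Cebpb result was not tested.

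Onecut1 was 51.5, 17.8 and 34.5 in normal livers 1, 2 and 3 and 15.0, 8.62 and 25.5 in the tumors by the probe with the brighter signal. The array design ties that probe to a transcript record of Ensembl and the dimmer probe to a record of RefSeq. The groups overlapped, since tumor 3 was above normal liver 2. The SD among normal livers, 16.9, was nearly as large as the gap between the group means of 34.6 and 16.4. This was the largest log2 difference among the members in either direction, -1.09 ± 0.51 (SE, n = 3 per group), and it was not called (limma adjusted p = 0.145). Its 95% interval ran from -2.30 to 0.13. With 1 array left out the value ranged from -0.69 (without tumor 2) to -1.50 (without normal liver 2). The probe at the other end of the gene gave 1.97, 0.406 and 0.999 in normal livers and 0.539, 0.314 and 0.809 in the tumors, with normal liver 1 again the highest array and tumor 2 the lowest. Its log2 difference was -0.85 ± 0.61 (SE, n = 3 per group; limma adjusted p = 0.324), and it ranged from -0.31 (without normal liver 1) to -1.44 (without normal liver 2). Onecut1 was also the only member whose ratio of arithmetic means passed the 2-fold limit of the study's methods, at 0.473, but across all probes the methods' t-test, paired by replicate number, gave an adjusted p of 0.317 and its unpaired form 0.284. The labels do not tell whether samples with the same replicate number came from the same animal.

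Prox1 was 1.45, 2.12 and 2.72 in normal livers 1, 2 and 3 and 1.25, 1.34 and 1.15 in the tumors. All 3 tumors were below all 3 normal livers, and they lay close together, with an SD of 0.0982 against 0.635 among normal livers. The log2 difference was -0.70 ± 0.23 (SE, n = 3 per group) and the limma adjusted p 0.0589, just above the threshold. Without normal liver 1 the adjusted p was 0.0178, without any other single array it was 0.103 to 0.147, and with spike-in scaling it was 0.252. Prox1 also marks lymphatic endothelium. Lyve1, Flt4 and Pdpn of the endothelial list mark those vessels too, and they were not called, with Lyve1 at 1.50 and Flt4 at 0.70 on the log2 scale and Pdpn too dim to test. Over all 7 endothelial markers the summed expression value was 53.5 to 65.4 in the normal livers and 47.4 to 50.4 in the tumors. Most of that sum came from Kdr and the brightest Stab2 probe. The mean of Kdr was 28.2 in the normal livers and 28.0 in the tumors, and that of the Stab2 probe 28.5 and 16.5. The lower sum in the tumors therefore follows the Stab2 probe and is no measure of endothelial markers in general. Stab2 was the 1 called of 6 tested, or 16.7% beside 34.2% of all genes. Its brightest probe was lower by 0.78 on the log2 scale, while its dimmer probes were not called, at 0.09 and 0.02. The part of the endothelial markers in the Prox1 values was not tested.

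Normal liver 1 was the highest normal liver for Foxa1, Foxa2, Cebpb and Onecut1, that is, for 4 of 8 members, and normal liver 3 was the highest for the other 4. It was also the highest of all 6 arrays for Hhex, a homeobox factor of liver budding, at 50.7 against 14.4 to 29.0 elsewhere. This array had the lowest 75th percentile of the 6.

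**Figure D2:**
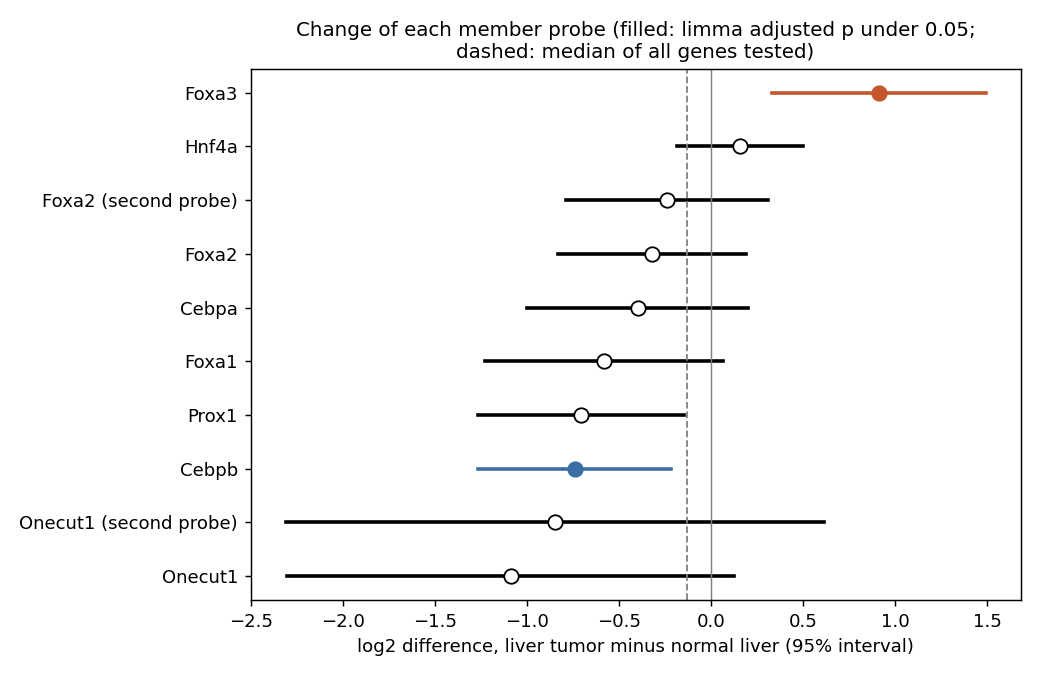
Log2 difference of each member probe, liver tumor minus normal liver, with its 95% interval from limma; filled points were called and the dashed line is the median of all genes tested, -0.13. The intervals of Foxa3 (0.33 to 1.49) and Cebpb (-1.26 to -0.22) exclude 0, as does that of Prox1 (-1.26 to -0.15), while both Onecut1 probes have the widest intervals.

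Paralogs were then compared on the same array, so that the scaling of the array cancels. For each pair the log2 difference between the 2 probes was taken on each array and set against its mean in normal liver. Foxa1 relative to Foxa3 was 0.54, -0.01 and -0.53 in normal livers 1, 2 and 3 and -1.88, -1.22 and -1.38 in the tumors. The groups did not overlap, and the change was -1.49 ± 0.37 on the log2 scale (SE, n = 3 per group), 2.82-fold in favour of Foxa3. Foxa2 relative to Foxa3 was 0.38, 0.18 and -0.56 in normal livers and -1.67, -0.99 and -1.03 in the tumors, again without overlap, a change of -1.23 ± 0.36 or 2.35-fold. Foxa1 relative to Foxa2 changed by -0.26 ± 0.11, with a 95% interval from -0.57 to 0.04 that includes 0. These groups were also apart, with the highest tumor (-0.21) next to the lowest normal liver (-0.19). For Cebpb relative to Cebpa the groups overlapped, and the change was -0.34 ± 0.36 with a 95% interval from -1.33 to 0.65. The exact two-sided permutation p was 0.1 for each of the 3 Foxa pairs and 0.2 for the C/EBP pair, and 0.133 and 0.2 after Benjamini-Hochberg adjustment over the 4 pairs, so no pair reached 0.05, which 3 arrays against 3 cannot do.

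**Figure D3:**
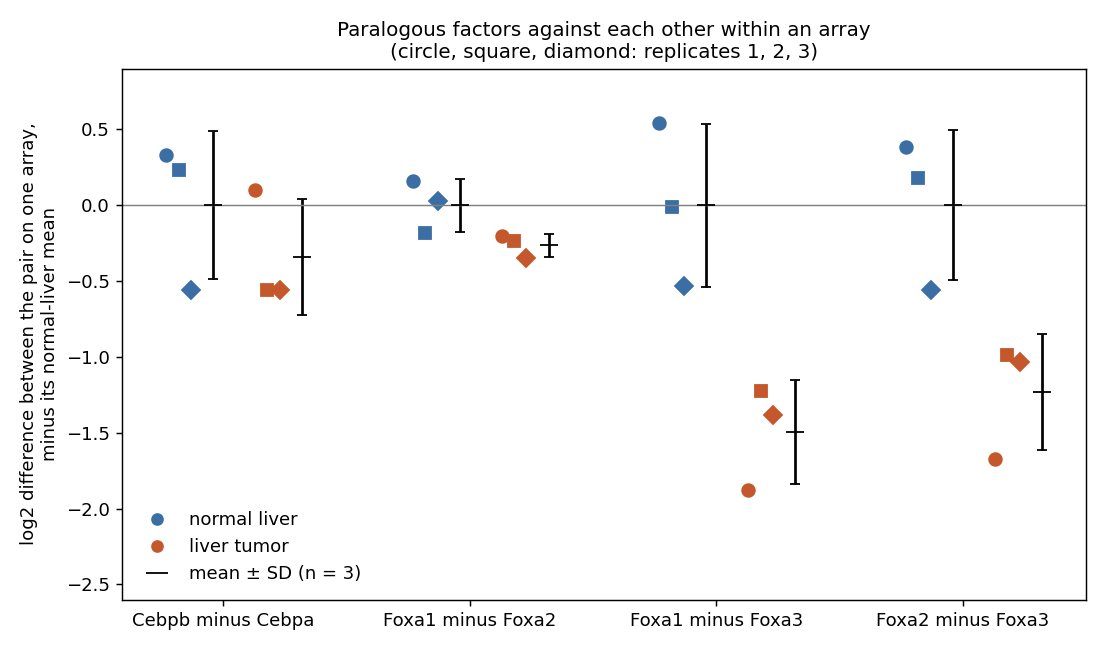
Within-array log2 difference between paralogous factors, each pair set to 0 at its normal-liver mean, with circle, square and diamond for replicates 1, 2 and 3 and the mean ± SD of each group (n = 3). Both pairs with Foxa3 lie more than 1 below 0 on the log2 scale in all tumors except Foxa2 minus Foxa3 in tumor 2 (-0.99), and Cebpb minus Cebpa overlaps between the groups.

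Sequence at the start sites was read for the members because these factors are known to bind the promoters of one another. RefSeq start sites of GRCm38.p6 gave 12 windows for the 8 genes, each from 250 bases before to 50 bases after a start. Both strands were searched for TGTTTAC (Foxa), CAAAGTCCA (Hnf4a), TTGCGCAA (C/EBP) and ATCGAT (Onecut), and 1 window held a match. The Foxa1 window held TGTTTAC once on the opposite strand, at -141 to -135 from the start, a motif present in 3.65% of 32851 windows of the same length. CAAAGTCCA, TTGCGCAA and ATCGAT were present in 0.47%, 0.18% and 0.93% of windows and in none of the members'. At shares this low, 12 windows were unlikely to hold a match, and missing exact letters do not show that a site is absent. The stretch of Foxa1 is shown for its match, in capitals, and the 250 bases before the starts of Foxa3 and Cebpb because these were the members called.
Foxa1, positions -152 to -123 from its start: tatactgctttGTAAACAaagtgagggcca
Foxa3, chr7:19023540-19023789, minus strand: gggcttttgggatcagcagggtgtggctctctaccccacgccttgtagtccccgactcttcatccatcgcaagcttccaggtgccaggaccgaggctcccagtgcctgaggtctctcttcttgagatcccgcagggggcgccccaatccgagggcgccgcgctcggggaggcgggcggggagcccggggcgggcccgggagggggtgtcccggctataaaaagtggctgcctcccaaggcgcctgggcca
Cebpb, chr2:167688665-167688914, plus strand: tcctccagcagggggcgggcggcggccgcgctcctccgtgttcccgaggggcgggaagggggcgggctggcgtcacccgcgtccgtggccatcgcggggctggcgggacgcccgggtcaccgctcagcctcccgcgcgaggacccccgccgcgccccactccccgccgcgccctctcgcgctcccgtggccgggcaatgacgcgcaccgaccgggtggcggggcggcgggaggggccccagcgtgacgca
The 250 bases before the starts differed in base composition between windows. The Cebpb window was 81.6% G or C with 41 CpG pairs, the highest values of the 12 windows, and the Foxa3 window 68.8% with 18. Both Hnf4a windows held few CpG pairs, 3 at the upstream start and 4 at P1.

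The other genes of these families were measured too. Of 8 such genes 4 could be tested, and Hnf4g, Cebpe, Onecut3 and Prox2 stayed near background on all 6 arrays. Onecut2, the close relative of Onecut1, was 35.9, 35.8 and 37.9 in normal livers 1, 2 and 3 and 0.862, 4.71 and 5.93 in the tumors. The groups were far apart and tumor 1 was the lowest. Onecut2 fell by 3.66 ± 0.69 (SE, n = 3 per group) on the log2 scale with a limma adjusted p of 0.0101, the 1 gene called of these 4. Cebpd, Cebpg and Ddit3 were not called, at -0.27, 0.38 and 0.47.

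Among 18 partner factors, the receptors and cofactors that act with the members on hepatocyte genes, 8 were called lower and 1 higher, or 50% of those tested beside 34.2% of all genes. The list median was -0.54, beside -0.13 over all genes. The largest falls were those of Tbx3, a T-box repressor (-3.11), Nr1i3, the xenobiotic receptor CAR (-2.35), and Nr1h4, the bile acid receptor FXR (-1.22). Nr1i3 was 26.2 to 27.2 in the normal livers and 3.65 to 6.94 in the tumors, so the groups were well separated. Gata6 was the only partner called higher, at 0.58. It stood against its relative Gata4, a pioneer partner of the Foxa factors, which was called lower at -0.73. When arrays were scaled by spike-in controls, 5 of the 18 partners were called in place of 9, and 4 of these were lower.

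Genes known to be driven by Hnf4a did not move one way. Of 17 tested, 3 were called higher and 3 lower, or 35.3% beside 34.2% of all genes, and the list median was -0.10. That median turned to 0.08 with quantile normalization, which called 5 higher and 3 lower, and to 0.07 with spike-in scaling. The apolipoprotein genes Apoa4 (5.43), Apoc2 (1.68) and Apoa1 (0.90 on the log2 scale) rose. The genes that fell were Cyp7a1 (-4.25), the rate-limiting enzyme of bile acid synthesis, Cyp8b1 (-3.73), which sets the balance of the bile acids made, and Otc (-1.43) of the urea cycle. Cyp7a1 was 4.27, 12.2 and 5.13 in normal livers 1, 2 and 3 and 0.0877, 0.280 and 1.56 in the tumors, without overlap but with a wide spread among tumors. Only 2 of the 3 tumors stood well above background for Cyp7a1, so the size of its fall is uncertain. The clotting factors F7, F9, F11 and F12 were not called, with log2 differences from -0.30 to 0.19. Probes of one gene disagreed for Apob, Apoc3 and Slc10a1: their brightest probes were not called, while a dimmer probe was called at 0.55, 1.29 and -2.09.

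Of 9 genes known to be driven by Foxa and Onecut factors, 7 had log2 differences below 0. The largest rise of these lists, that of the single gene Afp, was also found here. Of 9 tested, 2 were called higher and 3 lower, or 55.6% beside 34.2% of all genes, with a median of -0.50. Afp, the fetal serum albumin, was 0.132, 0.149 and 0.706 in normal livers 1, 2 and 3 and 190, 181 and 134 in the tumors, and the normal livers were low on every array, 1 of them not well above background. Its log2 difference was 9.44, a size that is uncertain with normal livers this low. Igfbp1, a hepatic binding protein of insulin-like growth factors and a known Foxa target, rose by 3.94. G6pc (-2.32) and Pck1 (-1.37) of gluconeogenesis and Tat (-1.43), which degrades tyrosine, fell. Alb was 1923 to 2449 in the normal livers and 2123 to 2221 in the tumors, at -0.06.

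Of 12 genes known to be driven by C/EBP factors, 7 were called lower and 2 higher, or 75% beside 34.2% of all genes, and the list median was -1.52. With 1 array left out, 7 to 9 were called, of which 5 to 7 were lower. Among those that fell were Orm2 (-2.82) and Orm1 (-2.76), acute-phase plasma proteins, and Hamp (-2.46), which encodes the iron hormone hepcidin. Orm1 and Orm2, like Saa1 and Saa2, are near-identical copies whose probes may share signal, so their separate values are uncertain. All of these copies were called lower, so the 75% and the list median may count a shared signal more than once. Orm1 was 41.4 to 43.0 in the normal livers and 3.40 to 10.5 in the tumors, with no overlap. Lcn2, an iron-binding protein of inflammation, rose by 5.29. Il1rn, the interleukin 1 receptor antagonist, did not stand well above background in normal liver 1, 2 or 3. The tumors exceeded that limit by at least 12.1-fold. Il1rn passed the filter on dim probes only through the tumors, and its place among the 2 called higher rests on that.

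**Figure D4:**
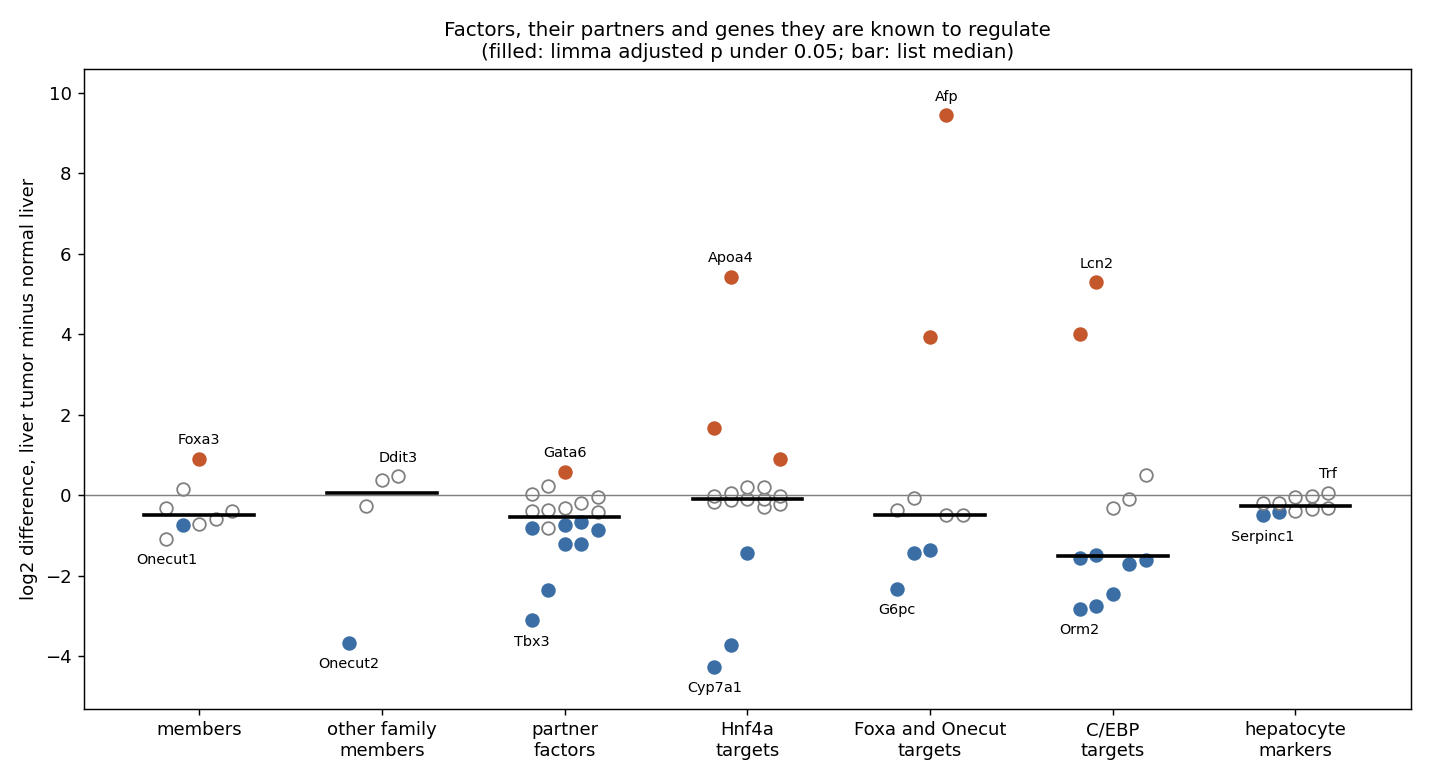
Log2 difference, liver tumor minus normal liver, of each gene in the member list and in lists of related factors, of genes they are known to regulate and of hepatocyte markers; filled points were called, bars are list medians, and the lowest and highest gene of each list is named. The members lie between -1.09 and 0.91, while the target lists reach from -4.25 (Cyp7a1) to 9.44 (Afp). The sizes of these last values are uncertain, since not every array stood well above background for Cyp7a1 and Afp.

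Markers of liver cell types give the setting of these values. Of 10 hepatocyte markers, 2 were called lower, Serpinc1 at -0.50 and Apoh at -0.41, or 20% beside 34.2% of all genes. The list median was -0.25 (summed expression value 11165 to 11930 in the normal livers and 9897 to 10131 in the tumors). None of these 10 was at background. Of 6 cholangiocyte markers none was called by limma among the 4 tested (0 at an unadjusted p under 0.05), and their sum was 2.33 to 2.93 and 1.89 to 2.19. Of 6 stellate cell markers, Lrat, Des and Pdgfrb were called lower and Col1a1 and Reln higher, or 83.3% beside 34.2% of all genes. The sums of these 6 were 2.91 to 3.93 and 4.24 to 7.43. Of 6 lymphocyte markers none was called by limma among the 3 tested (1, Cd79a, at an unadjusted p under 0.05), with sums of 6.75 to 8.63 and 6.77 to 8.88, and Cd8a stayed near background throughout. The part of these cells in the members' values was not tested.

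For each member, the genes most like it among the 95 tested genes of the other lists were found by the root mean square distance over the 6 arrays, on log2 values set to 0 at the normal-liver mean, as a description with no test. Foxa3 was nearest to Apoa1 (0.206) and then Cd79a (0.301). Cebpb was nearest to Creb3l3 (0.220), a liver transcription factor of lipid metabolism, and then to the macrophage marker Cd68 (0.245). Foxa1 was nearest to Gata4 (0.162) and then Fgg (0.318). For Cebpa the nearest were Nr1i2 (0.158), the xenobiotic receptor PXR, and F9 (0.244). The nearest to Hnf4a were Cdh5 (0.086) and F11 (0.125), which like Hnf4a differed little between the groups. Foxa2 was nearest to Apoa2 (0.202) and Fgg (0.212), and Prox1 to Pfkfb1 (0.211) and the brightest probe of the sinusoidal endothelial marker Stab2 (0.222). Onecut1 had no close neighbour, with Gata4 at 0.579 and Krt19 at 0.643.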

How the data were processed

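Total RNA of 3 normal livers and 3 liver tumors was measured on 6 single-colour arrays. The authors deposited the scanner output of each array, made with Agilent Feature Extraction (12.0.3.1 by the submitters' processing notes, 10.7.3.1 by the file headers), in which the processed signal intensity is background subtracted, and a table of that signal as a ratio to the array's 75th percentile. No column of that table was without a sample. Each deposited intensity was divided by the 75th percentile of all spots of its array and taken to log2. Control and outlier spots were left out, spots of a probe were averaged, and of 55681 probes the 24900 that stood well above background throughout the normal livers or throughout the tumors were tested. Groups were compared with limma 3.58.1 in R 4.3.3 (lmFit, eBayes, two-sided), and p-values were adjusted by Benjamini-Hochberg over all tested probes, with 0.05 as the threshold. Where no array of a group was well above background, the fold is a lower bound. It sets the other group's mean against the mean, per array, of the probe's own signal or, if higher, the dimmest signal that still stood well above background. Tables and figures were made in Python 3.11.15 (scipy 1.17.1, numpy 2.4.6, pandas 2.3.3, matplotlib 3.10.9).

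Symbols and upstream windows are from RefSeq (GRCm38.p6), matched by accession for 27235 probes, by symbol for 3581 and by synonym for 565, and the design's name was kept for 24300. The members and lists were chosen with earlier results of these data known. The text names every member probe, any measured gene of their families, up to 3 called genes with the largest rise and up to 3 with the largest fall of each other list, and the 2 genes nearest to each member. Others are named as examples and were chosen after their values were seen. The number of arrays limits the precision. Single values of some partner genes and a planned motif are not reported here. The fit was tested on simulated data. As alternatives, the background was corrected by normexp (offset 50), arrays were quantile normalized or scaled by their spike-in controls, the filter was dropped or tightened, the deposited table was the start, the replicate number was a block, eBayes was given a trend, the methods' t-test was run paired and unpaired, a gene's probes were averaged, and each array was left out.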

Additional observations from a re-analysis of the deposited data

How the results depend on the processing

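The direction of all 8 members, by their brightest probe, was kept under every alternative run, while the second Foxa2 probe turned to 0.02 without normal liver 1. The log2 difference of Hnf4a, Foxa1, Foxa2 and Cebpa stayed uncalled throughout. Prox1 was called as lower with eBayes with a trend (adjusted p = 0.0408), a stricter filter on dim probes (0.0485) and without normal liver 1 (0.0178), and Onecut1 only with the replicate block (0.0490). The number of members called was 2, but 1 with quantile normalization, 1 with spike-in scaling, 0 with no filter on dim probes, 0 with the methods' t-test and 0 with its unpaired form, and between 0 and 1 with 1 array left out. At an unadjusted p under 0.05 the unpaired test gave 2 members (Foxa3 and Cebpb), the paired test 1 (Cebpa), and limma 3. Over all tested probes, the count of 8239 became 5100 with spike-in scaling (3108 higher and 1992 lower, against 3112 and 5127), 4674 with no filter, 5261 in the unpaired and 0 in the paired t-test (7419 at an unadjusted p under 0.05), and 4952 to 7172 with 1 array left out. The lowest of these was without normal liver 2. Spike-in scaling moved the median of all genes from -0.13 to 0.04, and the partner list from 9 calls to 5. Deviations from the group means cannot decide, with 3 arrays per group, whether the replicate numbers pair the samples. These deviations correlated at 0.0687, 0.132 and 0.0506 for numbers 1, 2 and 3. Samples with numbers 1 and 2 correlated best with their own number, and those with number 3 did not. With the replicate block, 3 members and 7021 probes were called, and the changes of the within-array pairs were the same (-1.49 for Foxa1 minus Foxa3). No pair changed direction. With 1 array left out, Cebpb minus Cebpa ranged from -0.62 to -0.18 and Foxa1 minus Foxa3 from -1.76 to -1.22. Cebpb lost its call under 10 of 17 alternatives and Foxa3 under 7, and the cause was not tested.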
